A study of Mus musculus with 3 samples.

Results

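The data concern 6 genes of the extrinsic death pathway, *Fasl*, *Tnfsf10*, *Fas*, *Tnfrsf10b*, *Cflar* and *Casp8*, in lymphocytes that had infiltrated subcutaneous mouse tumors. They were taken by name from the 32285 genes of the deposited tables, and each was found once. *Fasl* encodes Fas ligand and *Tnfsf10* encodes TRAIL, the death ligands that NK and T cells carry on their surface. *Fas* encodes the receptor of Fas ligand, and *Tnfrsf10b* encodes the single death receptor for TRAIL in the mouse. *Casp8* encodes caspase-8, the protease that an engaged death receptor activates, and *Cflar* encodes c-FLIP, which competes with caspase-8 in the receptor complex and restrains it.

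In this pathway a ligand on a killer cell binds its receptor on a target cell, the receptor recruits the adaptor FADD and caspase-8, and the caspase starts apoptosis. Killing by Fas ligand and TRAIL runs beside killing by perforin and granzymes. The same receptors also act between lymphocytes, where Fas removes activated T cells. *Tnfsf10* and *Fas* are known interferon-inducible genes.

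Droplet-based 3' single-cell RNA sequencing was performed on tumor-infiltrating lymphocytes of WT C57BL/6 Kaede mice, whose cells all carry a photoconvertible protein, green until violet light makes it red. Each injection held 250000 MC38-Ova cells, an ovalbumin-bearing line of murine colon adenocarcinoma. All tumors were isotype control treated, illuminated on day 13 and taken on day 15, 48 h later, and live CD45+ TER119- Kaede+ cells were sorted without CD11b+ NK1.1- cells. Kaede-green (KG+) cells, which entered after the illumination, made 2 libraries labelled as biological replicates, Kaede-green 1 and Kaede-green 2, and Kaede-red (KR+) cells, present at the illumination, made 1. How many mice each library held is not given in the sources used here. The p-values thus measure only how a difference between groups varied over these libraries, 1 of them of the other color. That variation may be partly technical. Values of a group in the 3 libraries are given below in the order Kaede-green 1, Kaede-green 2, Kaede-red.

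The deposited tables held 10498, 12327 and 11956 cells, with medians of 6438, 8007 and 11079 unique molecular identifiers (UMIs), and 9593, 10867 and 10716 cells were kept after filters. The libraries shared between 20 and 36 cell barcodes with each other. NK cells held at least 1 UMI of *Ncr1* and at most 1 of *Cd3e* (8385 cells). CD8 T cells held at least 2 UMIs of *Cd3e* and at least 1 each of *Cd8a* and *Cd8b1* (9452 cells), and Treg at least 2 of *Cd3e* and 1 of *Foxp3* (1732 cells). The 374 cells that met both T cell gates were left out of both groups. NK cells were divided by their integrins into *Itgam*-positive (798 cells), *Itga1*-positive (2323 cells), double-negative (5147 cells) and double-positive cells (117 cells). ILC-like cells were NK cells with at least 2 UMIs of *Rora* and none of *Eomes* (500 cells), of which 176 were also *Itga1*-positive. CD8 T cells were divided by a UMI of *Havcr2*, a marker of exhausted T cells, into 3460 positive and 5992 negative cells.

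Levels are given as CPM, the UMIs of a gene scaled to the summed UMIs of the group in that library. Of the NK markers that no gate used, *Klrb1c*, which encodes NK1.1, was at 175 to 369 CPM in NK cells and 10.1 to 16.9 CPM in CD8 T cells, while *Prf1* and *Klrk1* were also high in CD8 T cells, at 260 to 700 and 335 to 440 CPM. A UMI of *Ncr1* was present in 634 CD8 T cells, and 1 UMI of *Cd3e* in 906 of the 8385 NK cells. Treg markers other than the gate gene *Foxp3* were also high in Treg, with *Il2ra* at 552 to 665 CPM against 61.6 to 75.4 CPM in CD8 T cells. ILC-like cells held 135 to 170 CPM of *Klrb1c*, against 178 to 379 CPM in the other NK cells, and 508 to 675 CPM of the Treg list, against 157 to 201 CPM in the other NK cells. A macrophage list (6 genes) summed to 2.72, 444 and 192 CPM in *Itgam*-positive NK cells, against 17.5, 31.0 and 1.08 CPM in *Itga1*-positive NK cells. Each result was computed again without cells that held a UMI of *C1qa*, *C1qb*, *C1qc* or *Lyz2*, 5.14% of *Itgam*-positive and 3.75% of *Itga1*-positive cells, and no call of a member was lost. Depth differed as well, with a median of 5980.5 UMIs in *Itgam*-positive and 20040 UMIs in *Itga1*-positive NK cells, against 7752 UMIs in double-negative cells.

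On GRCm38, *Fasl* (ENSMUSG00000000817) lies on the minus strand at chr1:161780689-161788495, and *Cflar* (ENSMUSG00000026031) and *Casp8* (ENSMUSG00000026029) are close to each other on the plus strand of the same chromosome, at chr1:58711508-58758884 and chr1:58795374-58847503. *Fas* (ENSMUSG00000024778) is at chr19:34290666-34327772, *Tnfsf10* (ENSMUSG00000039304) at chr3:27317028-27342427 and *Tnfrsf10b* (ENSMUSG00000022074) at chr14:69767472-69784411, all on the plus strand. The models Gm27818 and Gm37760 overlap *Fas* and *Casp8* on the same strand. Whether they were among the counted genes was not checked. If so, UMIs in the shared stretches could have been assigned to either or to neither.

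The bases before the RefSeq start of *Fasl*, *Fas* and *Tnfsf10* are shown because these genes carried the largest differences between the integrin classes of NK cells. Of the 6 genes, 5 had a promoter window in RefSeq (GRCm38.p6), and *Tnfrsf10b* had none. The windows of *Cflar* and *Casp8* held no match to any of the letters searched. The *Casp8* window (chr1:58802252-58802501) is downstream of the GENCODE start of the gene (58795374), so it lies inside that gene model. The 250 bases upstream of *Fasl* (chr1:161788496-161788745, minus strand) hold 1 match, in capitals, to the core letters GGAAAA of sites for NFAT, the factor that T cell receptor signaling activates. The 250 bases upstream of *Fas* (chr19:34290409-34290658, plus strand) hold 1 match, in capitals, to TTCNNNGAA, the letters of a STAT site (GAS).
Fasl: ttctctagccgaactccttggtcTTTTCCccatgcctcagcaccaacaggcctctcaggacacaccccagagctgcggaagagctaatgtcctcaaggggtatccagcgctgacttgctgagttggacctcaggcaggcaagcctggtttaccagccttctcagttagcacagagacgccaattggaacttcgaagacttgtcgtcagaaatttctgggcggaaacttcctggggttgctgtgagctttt
Fas: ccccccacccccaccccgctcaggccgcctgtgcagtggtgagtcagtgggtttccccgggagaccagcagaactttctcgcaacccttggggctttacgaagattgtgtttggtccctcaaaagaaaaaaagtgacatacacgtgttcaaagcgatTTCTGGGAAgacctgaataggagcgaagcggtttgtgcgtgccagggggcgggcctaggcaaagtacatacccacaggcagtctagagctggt
Over the 250-base windows of all 32851 promoters, searched on both strands, 20.4% hold the NFAT letters and 7.02% the STAT letters. The core letters of an interferon-stimulated response element, GAAANNGAAA, had no exact match in the 5 windows and 1 in 2.98% of all windows. With 1 mismatch allowed among the 8 letters that count, *Tnfsf10* held 2 matches, and 31.4% of all windows held at least 1. They lie at chr3:27317024-27317033, where the letters read on the minus strand, and at chr3:27317045-27317054. The RefSeq start (27317077) is downstream of the GENCODE start (27317028). The first match spans the GENCODE start, and the second lies inside that gene model. Only the 30 bases around each match are therefore shown, with the match in capitals. They are the plus strand of chr3:27317014-27317043 and chr3:27317035-27317064.
Tnfsf10 first: acttgcttagTTTCACTTTTggtctcaaca
Tnfsf10 second: gtctcaacagTAAAAAGAAActgcatgggc
These matches describe the letters of the windows, and no binding was measured.

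For each comparison between groups, UMIs were summed per library and group and tested with edgeR's quasi-likelihood test, with the library as a block and Benjamini-Hochberg adjustment over all genes tested. A gene was called changed at an adjusted p below 0.05. Where a call of a member or a named gene was lost without the block, that p is given with it. Between *Itga1*-positive and *Itgam*-positive NK cells all 5 members that could be tested changed, where 34.8% of the 9862 genes tested did. *Tnfrsf10b*, with 67 and 6 UMIs in these groups, was too low to be tested. Between ILC-like and other NK cells 2 of 6 members changed (5.24% of genes), and between NK cells with and without a UMI of the interferon-induced gene *Ifit3* 4 of 6 (6.88%). Between CD8 T and NK cells 2 of 6 changed (29.4%), between Treg and CD8 T cells 5 of 6 (24.2%), between Treg and NK cells 4 of 6 (23.4%), and between *Havcr2*-positive and *Havcr2*-negative CD8 T cells 1 of 6 (27.6%). In the comparisons of whole lineages and of integrin classes a large share of all genes was thus called, and the counts of members are to be read beside it. Comparisons that share a group share its sums and are not independent of each other. Where sums of a member are said not to overlap, the share of all genes for which this held was not computed.

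**Figure D1:**
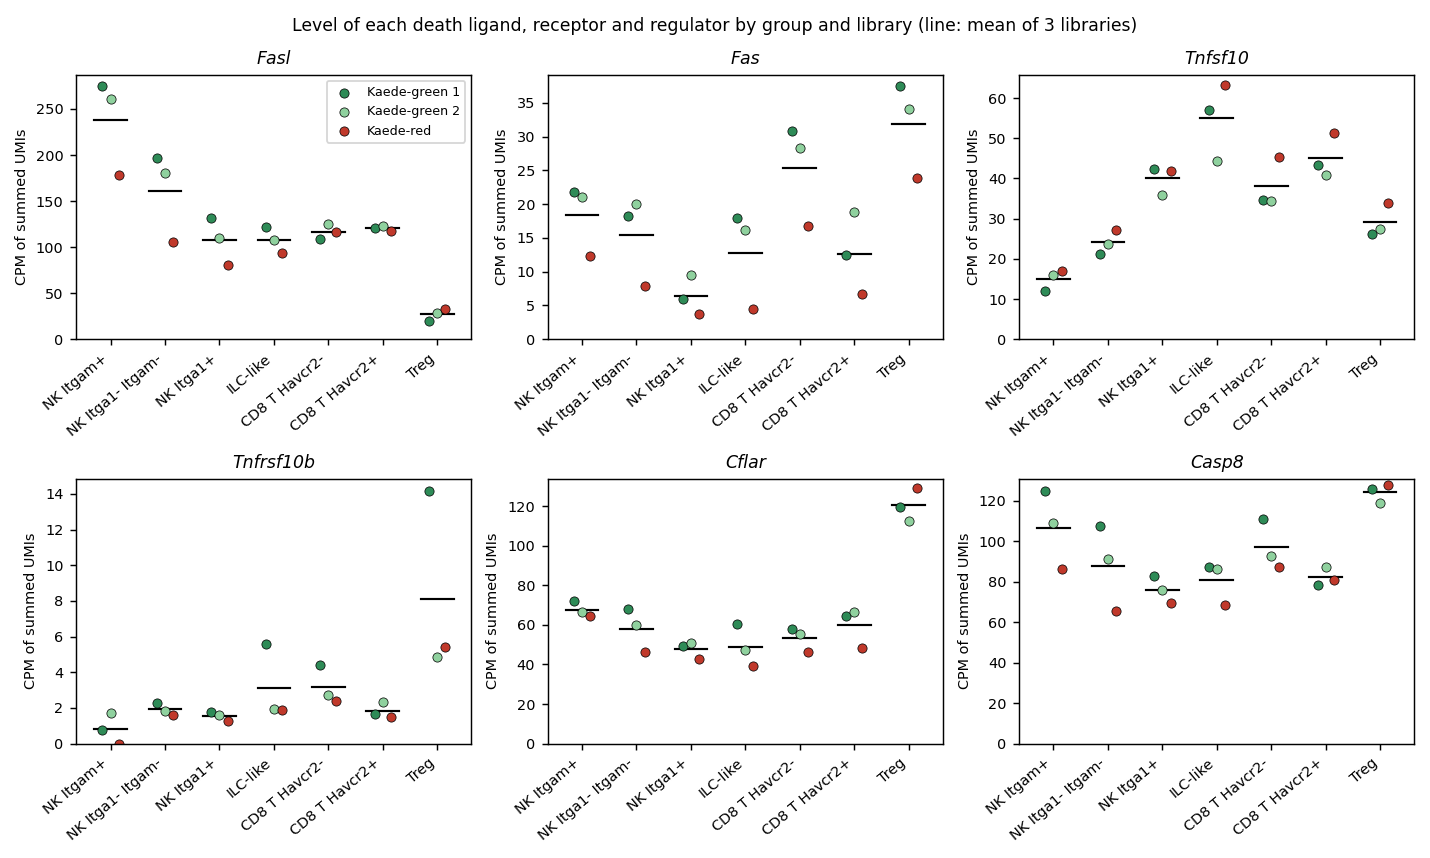
Level of each gene (y axis, CPM of summed UMIs, from 0) in 7 groups of cells (x axis), with a point for each library and a line at the mean of the 3 libraries. *Fasl* falls from a mean of 238 CPM in *Itgam*-positive NK cells to 27.1 CPM in Treg, and for *Fas* the Kaede-red point is the lowest of the 3 in every group shown.

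*Fasl* was a gene of NK and CD8 T cells and was low in Treg. Its level was 196, 168 and 90.6 CPM in NK cells, 113, 125 and 117 CPM in CD8 T cells, and 20.2, 28.1 and 33.1 CPM in Treg. The lowest CD8 T cell sum was thus more than 3 times the highest Treg sum. B cells (at least 2 UMIs of *Cd79a*, none of *Cd3e* or *Ncr1*, 291 cells), which should lack the ligand, held 10 UMIs, 3.72 to 14.4 CPM. *Fasl* was 4.78-fold lower in Treg than in CD8 T cells (log2 fold change −2.26 ± 0.14 SE, adjusted p = 0.000129) and 6.06-fold lower than in NK cells (−2.60 ± 0.33, adjusted p = 0.00372), in 3 of 3 libraries each. Cells that met both the CD8 T and the Treg gate were in between, at 61.7, 78.0 and 88.4 CPM.

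CD8 T and NK cells could not be ordered by *Fasl* over the 3 libraries. The log2 fold change of CD8 T over NK cells was −0.34 ± 0.19 (adjusted p = 0.248). The libraries disagreed, with log2 ratios of −0.80 and −0.43 in Kaede-green 1 and Kaede-green 2 and 0.37 in Kaede-red. Without Kaede-red the difference passed the threshold, at −0.62 (adjusted p = 0.0016).

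Within NK cells *Fasl* followed the integrins. It was at 275, 261 and 178 CPM in *Itgam*-positive cells, at 197, 180 and 105 CPM in double-negative cells and at 132, 110 and 80.7 CPM in *Itga1*-positive cells, so that the same order held in each library. The *Itgam*-positive and *Itga1*-positive sums did not overlap, while the double-negative sums overlapped with both, and *Fasl* was 2.10-fold lower in *Itga1*-positive than in *Itgam*-positive cells (log2 −1.07 ± 0.09, adjusted p = 4.68e-06). The difference was −1.08 without cells that held a macrophage UMI and −0.63 when only cells of 4000 to 16000 UMIs were used, which kept the call. Double-positive cells, with only 226 *Fasl* UMIs, spread from 101 to 326 CPM.

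ILC-like cells held 122, 107 and 93.2 CPM of *Fasl*, against 199, 173 and 90.4 CPM in the other NK cells. The fit called them lower (log2 −0.50 ± 0.12, adjusted p = 0.027), but the difference was in 2 of 3 libraries only, with ratios of −0.70 and −0.68 in the Kaede-green libraries and 0.04 in Kaede-red. The call was lost without the library block (adjusted p = 0.625) and with total UMIs in place of TMM factors (adjusted p = 0.0616), with stricter gates (0.0764), and without Kaede-green 1 (0.108) or Kaede-green 2 (0.382). In CD8 T cells *Fasl* was at 121, 123 and 117 CPM in *Havcr2*-positive and 109, 126 and 116 CPM in *Havcr2*-negative cells, a log2 difference of 0.00 ± 0.06 (adjusted p = 0.989). The sign of so small a difference changed with the scaling, and in cells of 4000 to 16000 UMIs it was 0.19 (adjusted p = 0.137).

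*Tnfsf10* ran against *Fasl* between the integrin classes. *Itgam*-positive NK cells held 12.1, 15.9 and 16.9 CPM and *Itga1*-positive cells 42.3, 35.8 and 41.9 CPM, so every *Itga1*-positive sum was above every *Itgam*-positive sum. The *Itgam*-positive level rested on 79 UMIs. The increase was 2.89-fold (log2 1.53 ± 0.16, adjusted p = 2.49e-05), and 1.47 on the log2 scale without cells with a macrophage UMI. ILC-like cells were higher still, at 57.03, 44.4 and 63.3 CPM against 22.7, 25.0 and 34.5 CPM in the other NK cells, again without overlap. This 1.85-fold increase (log2 0.89 ± 0.13, adjusted p = 0.000691) was not called without the library block (adjusted p = 0.189). The *Itga1*-positive and ILC-like cells were not tested against each other, since 176 cells belong to both.

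*Tnfsf10* was also higher in NK cells with a UMI of *Ifit3*, an antiviral gene induced by type I interferon. These cells held 44.7, 38.6 and 58.9 CPM and the cells without it 18.9, 22.2 and 31.6 CPM. The groups did not overlap, and the increase was 1.93-fold (log2 0.95 ± 0.09, adjusted p = 4.8e-05) and present in 3 of 3 libraries. *Casp8* (1.53-fold, adjusted p = 0.000245), *Fas* (1.45-fold, adjusted p = 0.018) and *Cflar* (1.26-fold, adjusted p = 0.0143) were higher in the same cells, whereas *Fasl* was at 210, 177 and 101 CPM against 192, 165 and 88.3 CPM (log2 0.16 ± 0.05, adjusted p = 0.101). Of all genes called in this comparison, 73.4% were higher. *Fas* was not called with DESeq2 (adjusted p = 0.107). *Fasl* was higher in 3 of 3 libraries and was called under 3 alternatives. These were cells of 4000 to 16000 UMIs (0.23, adjusted p = 0.00628), cells without a macrophage UMI (0.19, adjusted p = 0.0416) and the fit without Kaede-green 1 (0.15, adjusted p = 0.0454). None of the calls of *Tnfsf10*, *Casp8*, *Fas* and *Cflar* held without the library block, with adjusted p of 0.638 or more. The count over all genes then fell from 809 to 13. The macrophage list summed to 13.7, 220 and 11.6 CPM in the *Ifit3*-positive cells and 4.82, 20.98 and 1.56 CPM in the *Ifit3*-negative cells. Without cells that held a macrophage UMI, *Tnfsf10* differed by 0.96 on the log2 scale.

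Among the lineages *Tnfsf10* was at 24.3, 26.4 and 36.5 CPM in NK cells, 37.1, 37.1 and 48.7 CPM in CD8 T cells and 26.3, 27.3 and 34.0 CPM in Treg. CD8 T cells were above both other lineages in each library. They exceeded NK cells 1.36-fold (log2 0.44 ± 0.09, adjusted p = 0.018, and 0.281 without the library block), and Treg were 1.53-fold below them (log2 −0.61 ± 0.10, adjusted p = 0.00523). The CD8 T against NK call was lost without Kaede-green 1 (0.39, adjusted p = 0.064) and without Kaede-green 2 (0.44, adjusted p = 0.123), and in cells of 4000 to 16000 UMIs the difference was 0.80. After thinning each cell to 2000 UMIs the Treg against CD8 T difference was −0.29 and missed the threshold (adjusted p = 0.296). Treg and NK cells were neighbors in this order and did not differ beyond their spread (−0.17 ± 0.15, adjusted p = 0.474). With cells of 4000 to 16000 UMIs that difference turned to 0.40 (adjusted p = 0.0279). In *Havcr2*-positive CD8 T cells *Tnfsf10* was at 43.3, 40.9 and 51.2 CPM and in *Havcr2*-negative cells at 34.6, 34.4 and 45.4 CPM, higher in each of the 3 libraries but not past the threshold (log2 0.20 ± 0.07, adjusted p = 0.0531). It passed the threshold under 5 alternatives, among them cells of 4000 to 16000 UMIs, where the difference was 0.35 (adjusted p = 0.0156).

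**Figure D2:**
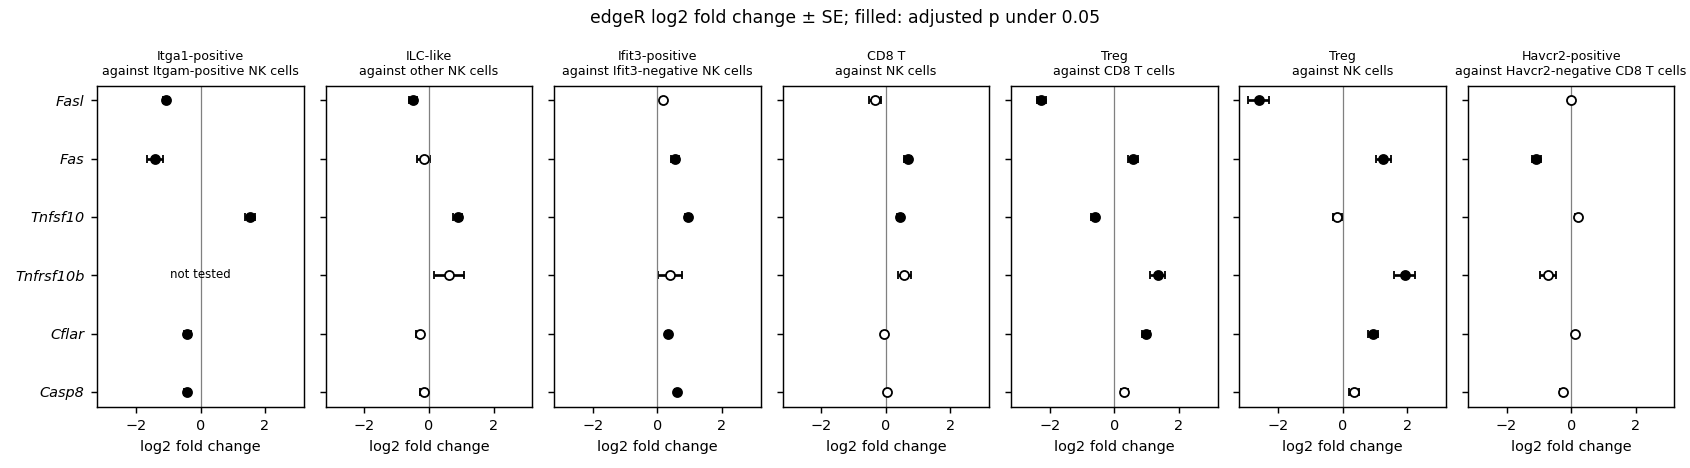
Log2 fold change of each gene (x axis, first-named group over the second) in the 7 comparisons, with bars for the SE of the edgeR fit and filled points for an adjusted p below 0.05. *Fasl* and *Tnfsf10* lie on opposite sides of 0 between the integrin classes (−1.07 and 1.53), and *Fas* and *Cflar* lie above 0 in Treg against both other lineages.

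*Fas*, the receptor, was highest in Treg and lowest in *Itga1*-positive NK cells. It was at 37.5, 34.1 and 23.9 CPM in Treg, 25.5, 24.4 and 11.04 CPM in CD8 T cells and 16.2, 17.2 and 5.34 CPM in NK cells. In each library the order was Treg, CD8 T and NK, while the levels of different libraries overlapped. *Fas* was 1.49-fold higher in Treg than in CD8 T cells (log2 0.58 ± 0.14, adjusted p = 0.0272), 2.40-fold higher in Treg than in NK cells (1.26 ± 0.22, adjusted p = 0.0119), and 1.60-fold higher in CD8 T than in NK cells (0.68 ± 0.11, adjusted p = 0.00867). Without the library block the adjusted p values were 0.28, 0.0553 and 0.461, so these calls rested on the contrasts within libraries. The Treg against CD8 T call was also lost after thinning (0.55, adjusted p = 0.060).

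Within NK and CD8 T cells *Fas* was lower in the *Itga1*-positive and in the *Havcr2*-positive cells. *Itgam*-positive NK cells held 21.8, 21.01 and 12.3 CPM and *Itga1*-positive cells 6.01, 9.57 and 3.69 CPM, without overlap and 2.64-fold lower (log2 −1.40 ± 0.24, adjusted p = 0.000757). The Kaede-red value of the *Itgam*-positive cells came from 8 UMIs. After every cell was thinned to 2000 UMIs before summing, the difference was −1.25 and missed the threshold (adjusted p = 0.11). *Havcr2*-positive CD8 T cells held 12.4, 18.8 and 6.72 CPM and *Havcr2*-negative cells 30.8, 28.4 and 16.8 CPM, 2.11-fold lower (log2 −1.08 ± 0.14, adjusted p = 0.00121, and 0.143 without the library block). The decrease was in 3 of 3 libraries, although the levels overlapped between libraries, and in cells of 4000 to 16000 UMIs it was −0.57 (adjusted p = 0.0383). ILC-like cells, at 17.9, 16.1 and 4.47 CPM, did not differ from the other NK cells (−0.16 ± 0.20, adjusted p = 0.809).

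*Tnfrsf10b*, the TRAIL receptor, was detected at a few CPM in each lymphocyte group. It was at 1.95, 1.73 and 1.36 CPM in NK cells (171 UMIs in all), 3.64, 2.55 and 1.90 CPM in CD8 T cells (327 UMIs) and 14.1, 4.85 and 5.41 CPM in Treg (145 UMIs). Every Treg sum was above every CD8 T and NK sum, and Treg of Kaede-green 1 stood apart from the other two Treg sums. The receptor was 2.53-fold higher in Treg than in CD8 T cells (log2 1.34 ± 0.24, adjusted p = 0.00806) and 3.797-fold higher than in NK cells (1.92 ± 0.33, adjusted p = 0.0103). CD8 T cells were above NK cells in 3 of 3 libraries (0.57 ± 0.19), which did not pass the threshold (adjusted p = 0.0765) but did without Kaede-red (0.71, adjusted p = 0.0421). Between *Havcr2*-positive and *Havcr2*-negative CD8 T cells the difference was −0.72 ± 0.24 (adjusted p = 0.0536), and −0.96 (adjusted p = 0.0276) without Kaede-green 2. In NK subsets the level was set by few UMIs, with 17 in ILC-like cells, and no difference was detectable at this depth (0.62 ± 0.47, adjusted p = 0.628 for ILC-like cells, and 0.38 ± 0.37, adjusted p = 0.653 for *Ifit3*-positive cells).

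*Cflar*, the brake on caspase-8, was about 2 times as high in Treg as in the other lineages. Treg held 120, 113 and 129 CPM, CD8 T cells 60.0, 60.2 and 47.4 CPM and NK cells 65.3, 58.0 and 44.2 CPM. No Treg sum overlapped with a sum of the other lineages. The increase was 1.99-fold over CD8 T cells (log2 0.99 ± 0.13, adjusted p = 0.00206) and 1.93-fold over NK cells (0.95 ± 0.16, adjusted p = 0.00964). Between CD8 T and NK cells the log2 difference was −0.04 ± 0.07 (adjusted p = 0.672), and its sign changed with the scaling. Cells of both T cell gates were again in between, at 104, 90.9 and 69.4 CPM.

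*Casp8* was nearer to even. It was at 126, 119 and 128 CPM in Treg, 102, 90.3 and 83.9 CPM in CD8 T cells and 105, 88.4 and 68.2 CPM in NK cells. The Treg sums did not overlap with those of the other lineages, but neither difference passed the threshold (log2 0.31 ± 0.10, adjusted p = 0.0695 against CD8 T cells, and 0.35 ± 0.15, adjusted p = 0.153 against NK cells). In cells of 4000 to 16000 UMIs the difference from NK cells was called (0.40, adjusted p = 0.0101). With total UMIs in place of TMM factors, *Casp8* in Treg against CD8 T cells was called (0.44, adjusted p = 0.0219), as it was without Kaede-red (0.24, adjusted p = 0.0355). In *Havcr2*-positive CD8 T cells it was at 78.3, 87.2 and 81.1 CPM and in *Havcr2*-negative cells at 111, 92.5 and 87.5 CPM (−0.27 ± 0.09, adjusted p = 0.0606, and −0.35, adjusted p = 0.0419 without Kaede-red). CD8 T and NK cells differed by 0.04 ± 0.07 (adjusted p = 0.703).

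Between the integrin classes of NK cells *Cflar* and *Casp8* fell together by a small amount. *Cflar* was at 72.0, 66.5 and 64.6 CPM in *Itgam*-positive and 49.6, 51.0 and 42.6 CPM in *Itga1*-positive cells, 1.33-fold lower (log2 −0.41 ± 0.11, adjusted p = 0.0111). *Casp8* was at 125, 109 and 86.2 CPM and 82.6, 76.0 and 69.5 CPM, also 1.33-fold lower (−0.42 ± 0.10, adjusted p = 0.00708). Neither pair of groups overlapped, and the share of all genes without overlap was not computed. In cells of 4000 to 16000 UMIs *Cflar* differed by only −0.13 (adjusted p = 0.608), while *Casp8* stayed at −0.36 (adjusted p = 0.0231). Without Kaede-green 1 or Kaede-green 2 neither gene was called, with adjusted p between 0.0666 and 0.126. After thinning to 2000 UMIs neither was called, with adjusted p of 0.146 for *Cflar* and 0.0934 for *Casp8*. *Cflar* was also not called with DESeq2 (adjusted p = 0.0786).

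The comparison of colors asked whether cells that had stayed in the tumor for at least 48 h differed from newer arrivals of the same group. With 1 Kaede-red library there is no test. A gene met the rule for color when Kaede-red lay on the same side of both Kaede-green libraries and farther from each, in log2 CPM, than they lay from each other. This was met by 59.7% of 12755 genes in NK cells, 48.1% of 13225 genes in CD8 T cells and 40.6% of 10746 genes in Treg, so meeting it says little by itself. It was met by 6 of 6 members in NK cells and by *Fas*, *Tnfsf10* and *Cflar* in both CD8 T cells and Treg. Within the NK and CD8 T subsets compared by color below, between 33.8% and 55.9% of genes met it. The NK ratios carry a shift, since the median of all genes was at −0.16 and −0.15 on the log2 scale. With TMM-scaled library sizes, which move the NK ratios up by 0.23, only *Fasl*, *Fas* and *Tnfsf10* met the rule in NK cells. The share of all genes that met it with these sizes was not computed, so this count cannot be set against a background. Time in the tumor, the library and its depth cannot be told apart, as Kaede-red NK cells had a median of 17253.5 UMIs against 6083 and 8158.5 in the Kaede-green libraries.

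*Fas* was lower in Kaede-red in each group. In NK cells the log2 ratios to Kaede-green 1 and Kaede-green 2 were −1.60 (95% interval −1.83 to −1.38) and −1.69 (−1.89 to −1.48), in CD8 T cells −1.21 (−1.36 to −1.06) and −1.15 (−1.28 to −1.01), and in Treg −0.65 (−0.97 to −0.33) and −0.51 (−0.80 to −0.23). Between Kaede-green 1 and Kaede-green 2 the difference was at most 0.14 in these groups. The lower level was also present within subsets, at −0.73 and −1.38 in *Itga1*-positive NK cells, −0.88 and −0.76 in *Havcr2*-negative CD8 T cells and −0.89 and −1.49 in *Havcr2*-positive CD8 T cells. In *Itgam*-positive NK cells, with 8 Kaede-red UMIs, the intervals included 0 (−0.75, −2.10 to 0.25, and −0.70, −2.06 to 0.32). In the *Itga1*-positive and *Havcr2*-positive cells the Kaede-green libraries themselves were 0.65 and 0.60 apart. Intervals are exact for Poisson counts and cover counting error only.

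*Fasl* was lower in Kaede-red NK cells and not in Kaede-red CD8 T cells. In NK cells the ratios were −1.11 (−1.17 to −1.05) and −0.89 (−0.95 to −0.83), with 0.22 between the Kaede-green libraries. With TMM-scaled sizes they were −0.88 and −0.66. The difference held within integrin classes, at −0.62 and −0.54 in *Itgam*-positive, −0.91 and −0.78 in double-negative and −0.71 and −0.45 in *Itga1*-positive cells. It was thus smaller within each class than in all NK cells. With TMM-scaled sizes the ratios of these classes were −0.57 and −0.48, −0.72 and −0.58, and −0.54 and −0.29. *Itga1*-positive cells made up 1526 of 3172 Kaede-red NK cells, against 309 of 2559 and 488 of 2654 in the Kaede-green libraries. In CD8 T cells the ratios were 0.05 and −0.09, less than the 0.15 between the Kaede-green libraries, and in Treg 0.71 and 0.24, of which the second was less than the 0.47 between the Kaede-green libraries.

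*Tnfsf10* was higher in Kaede-red in all 3 lineages. The ratios were 0.58 (0.44 to 0.73) and 0.47 (0.35 to 0.59) in NK cells, 0.39 (0.29 to 0.50) and 0.39 (0.31 to 0.48) in CD8 T cells and 0.37 (0.04 to 0.71) and 0.31 (0.05 to 0.58) in Treg. Within *Itga1*-positive NK cells they were −0.02 and 0.23, within the 0.24 that parted the Kaede-green libraries, and in double-negative NK cells 0.36 and 0.20. An interferon list (*Ifit1*, *Ifit3*, *Isg15* and *Oasl1*) was lower in Kaede-red, as *Fas* was. Its sums were 788, 692 and 376 CPM in NK cells and 1192, 983 and 730 CPM in CD8 T cells. A link between interferon and the color ratios of *Tnfsf10* or *Fas* was not tested. *Cflar* was lower in Kaede-red NK cells (−0.56 and −0.39) and CD8 T cells (−0.34 and −0.35). In Kaede-red Treg its ratios were 0.11 and 0.20, against 0.09 between the Kaede-green libraries, and the interval of the first included 0 (−0.04 to 0.27). With TMM-scaled sizes the *Cflar* ratios in NK cells were −0.34 and −0.16. *Casp8* was lower in Kaede-red NK cells (−0.62 and −0.38) and close to even in Treg (0.02 and 0.10). *Tnfrsf10b* in NK cells had intervals that included 0 (−0.53, −1.09 to 0.07, and −0.35, −0.87 to 0.20).

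**Figure D3:**
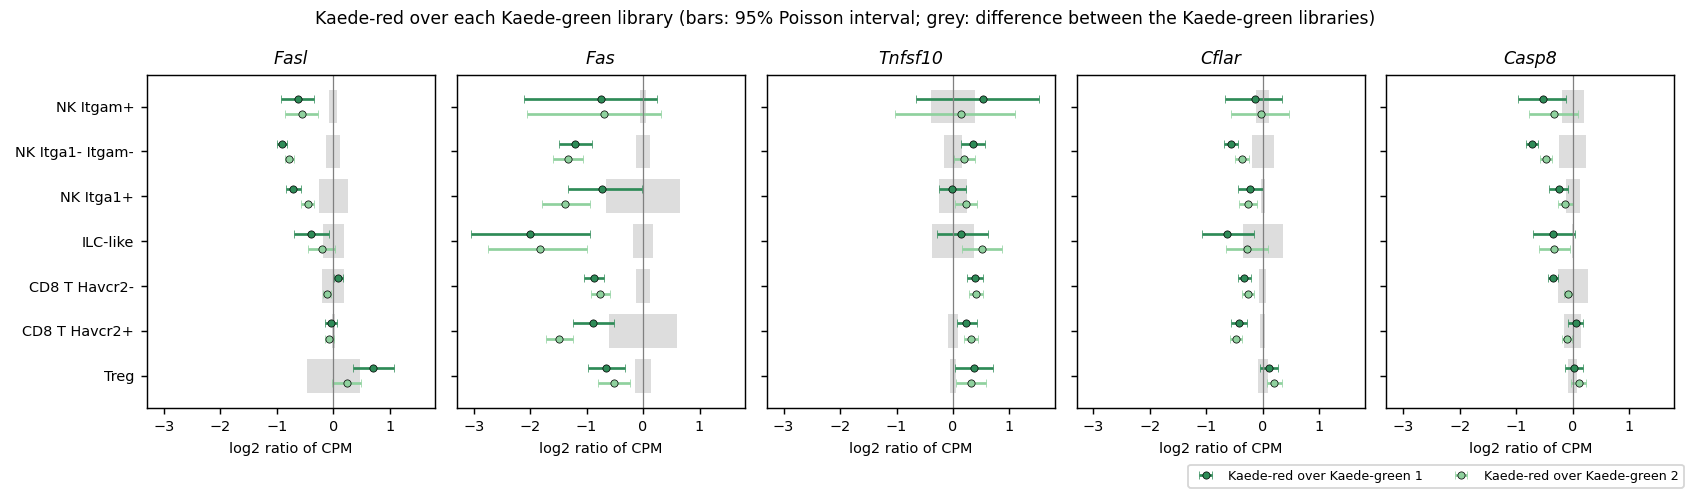
Log2 ratio of CPM (x axis) of Kaede-red to Kaede-green 1 (dark points) and to Kaede-green 2 (light points) for 5 genes in 7 groups of cells (y axis), with 95% Poisson intervals, and with the difference between the Kaede-green libraries as a grey bar on either side of 0. The points of *Fas* lie below 0 in every group, with intervals that include 0 in *Itgam*-positive NK cells. The points of *Fasl* lie below 0 in the NK groups and around 0 in the CD8 T groups.

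The shares of cells with a UMI were compared after each cell had been thinned to 2000 UMIs, since depth differed. *Fasl* was then detected in 35.0%, 33.0% and 18.4% of NK cells, in 22.5%, 24.5% and 23.6% of CD8 T cells and in 3.75%, 6.24% and 6.48% of Treg. With all UMIs these shares were 70.3%, 75.1% and 73.6% in NK cells, so the lower share in Kaede-red was seen only at equal depth. Over all libraries, 28.1% of NK cells (exact interval 27.1 to 29.1%), 23.7% of CD8 T cells (22.8 to 24.5%) and 5.83% of Treg (4.78 to 7.04%) held a *Fasl* UMI, against 1.37% of B cells (0.38 to 3.48%). B cells had a median of 4246 UMIs before thinning. Over the pooled cells the Treg share was thus above that of B cells, which should lack the gene. These intervals cover counting error only. The libraries were not matched, as 7 of 291 B cells and 679 of 1732 Treg were Kaede-red.

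*Fas* was detected in 2.87% of thinned NK cells (2.53 to 3.25%), 3.82% of CD8 T cells (3.44 to 4.23%) and 5.78% of Treg (4.72 to 6.98%), and *Tnfsf10* in 4.63% (4.19 to 5.10%), 7.68% (7.15 to 8.24%) and 7.05% (5.89 to 8.36%). B cells gave 0.69% for either gene (0.08 to 2.46%). In *Itgam*-positive NK cells *Fasl* was in 41.0% and *Tnfsf10* in 2.26% of thinned cells, and in *Itga1*-positive NK cells in 19.1% and 6.93%. These shares pool the cells of all libraries. Before thinning, 76 of 798 *Itgam*-positive and 1526 of 2323 *Itga1*-positive cells were Kaede-red. The part of color and library in these gaps was not tested. The *Tnfsf10* share of the *Itgam*-positive cells (interval 1.34 to 3.54%) lay within the interval of the B cells, so these thinned shares could not be told apart. With all UMIs, *Itgam*-positive cells held 12.1, 15.9 and 16.9 CPM of *Tnfsf10* (79 UMIs). B cells held 3.72, 3.44 and 0 CPM (5 UMIs).

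Other genes of the pathway were taken from a list of 33, among them adaptors, executioner caspases, inhibitors and further receptors and ligands of the TNF family. Between *Itga1*-positive and *Itgam*-positive NK cells 4 of the 30 tested were higher and 9 lower, where 34.8% of all genes were called, with a median log2 fold change of −0.19 against −0.01 over all genes. The largest changes were in *Lta*, which encodes lymphotoxin alpha (log2 2.49 ± 0.42, adjusted p = 0.000665), *Tnfrsf21*, which encodes death receptor 6 and had 3, 3 and 0 UMIs in *Itgam*-positive cells (2.24 ± 0.55, adjusted p = 0.00668), and *Birc3*, which encodes the inhibitor cIAP2 (−1.08 ± 0.14, adjusted p = 8.38e-05). *Lta* was at 1.95, 0.86 and 3.08 CPM in *Itgam*-positive and 7.51, 9.84 and 9.51 CPM in *Itga1*-positive cells and rested on 9 UMIs in the former. ILC-like cells, with 2 genes higher and 2 lower of 32 (5.24% of all genes called), were marked by *Tnfrsf25*, which encodes death receptor 3 (21.2, 14.6 and 10.6 CPM against 0.92, 1.13 and 0.46 CPM in the other NK cells, log2 4.14 ± 0.32, adjusted p = 7.99e-07). *Lta* was also higher in them (1.90 ± 0.24, adjusted p = 0.000132, and 0.0653 without the library block), and *Tnfsf12*, which encodes TWEAK, was lower (−0.50 ± 0.14, adjusted p = 0.0488, and 0.375 without the block). The list median was −0.04 against −0.02 over all genes, and with total UMIs in place of TMM factors the share of all calls that were higher rose from 47.6% to 59.5%.

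In *Ifit3*-positive NK cells 1 of 32 genes was higher and none lower by edgeR, where 6.88% of all genes were called. That gene was *Mlkl*, the executioner of necroptosis (30.5, 21.2 and 27.5 CPM against 11.3, 13.0 and 14.6 CPM, log2 0.98 ± 0.12, adjusted p = 0.000512, and 0.24 without the library block). The list median was 0.04 against −0.01. CD8 T cells differed from NK cells in 15 of 32 genes (29.4% of all genes called), 7 higher and 8 lower with a list median of −0.11 against −0.01, led by *Tnfsf12* (0.99, 2.98 and 2.82 CPM against 41.2, 34.7 and 28.9 CPM, log2 −3.94 ± 0.34, adjusted p = 0.00127), *Tnfrsf21* (−2.43 ± 0.18, adjusted p = 0.000898) and *Lta* (1.21 ± 0.24, adjusted p = 0.0172, and 0.0575 without the library block).

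Treg had 11 genes higher and 4 lower of 32 than CD8 T cells (24.2% of all genes called), with a median of 0.29 over the list and −0.02 over all genes, and 9 higher and 5 lower than NK cells (23.4% of all genes called, medians 0.08 against −0.03). Against CD8 T cells the largest were *Tnfrsf25* (1.95 ± 0.27, adjusted p = 0.00284), *Tnfrsf26*, a mouse receptor of the TNF family (−1.77 ± 0.34, adjusted p = 0.0106, and 0.0994 without the library block), and *Casp6*, an executioner caspase (43.8, 32.7 and 56.97 CPM against 12.2, 10.4 and 13.4 CPM, 1.74 ± 0.12, adjusted p = 0.00016). Against NK cells they were *Tnfsf12* (−4.23 ± 0.27, adjusted p = 0.000605), *Tnfrsf21* (−2.85 ± 0.35, adjusted p = 0.00341) and *Tnfrsf25* (2.22 ± 0.25, adjusted p = 0.00248). With total UMIs in place of TMM factors the median of all genes moved to 0.11 and 0.15 in these comparisons, and the share of calls that were higher rose from 53.1% and 53.8% to 67.9% and 67.7%. In *Havcr2*-positive CD8 T cells 2 genes were higher and 8 lower of 32, a share close to the 27.6% of all genes, with a list median of −0.04 against 0.00, led by *Tnfrsf26* (3.204, 2.84 and 0.60 CPM against 13.7, 12.9 and 3.54 CPM, −2.31 ± 0.15, adjusted p = 6.88e-05), *Tnfrsf22*, a decoy receptor for TRAIL (−1.97 ± 0.35, adjusted p = 0.00455), and *Tnfrsf25* (−1.63 ± 0.39, adjusted p = 0.0161). Without the library block none of these 10 calls held, with adjusted p of 0.102, 0.0668 and 0.223 for the named genes. In the other comparisons 10 of 13 calls held between the integrin classes, 1 of 4 in ILC-like cells and 0 of 1 in *Ifit3*-positive cells. Between CD8 T and NK cells 6 of 15 held, between Treg and CD8 T cells 14 of 15, and between Treg and NK cells 13 of 14. The last comparison had 17 calls of the list without the block. Over all genes the calls went from 3429 to 2410 between the integrin classes. They went from 3036 to 2773 for Treg against CD8 T cells and from 2878 to 3417 for Treg against NK cells. The share of all calls that held was not computed.

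**Figure D4:**
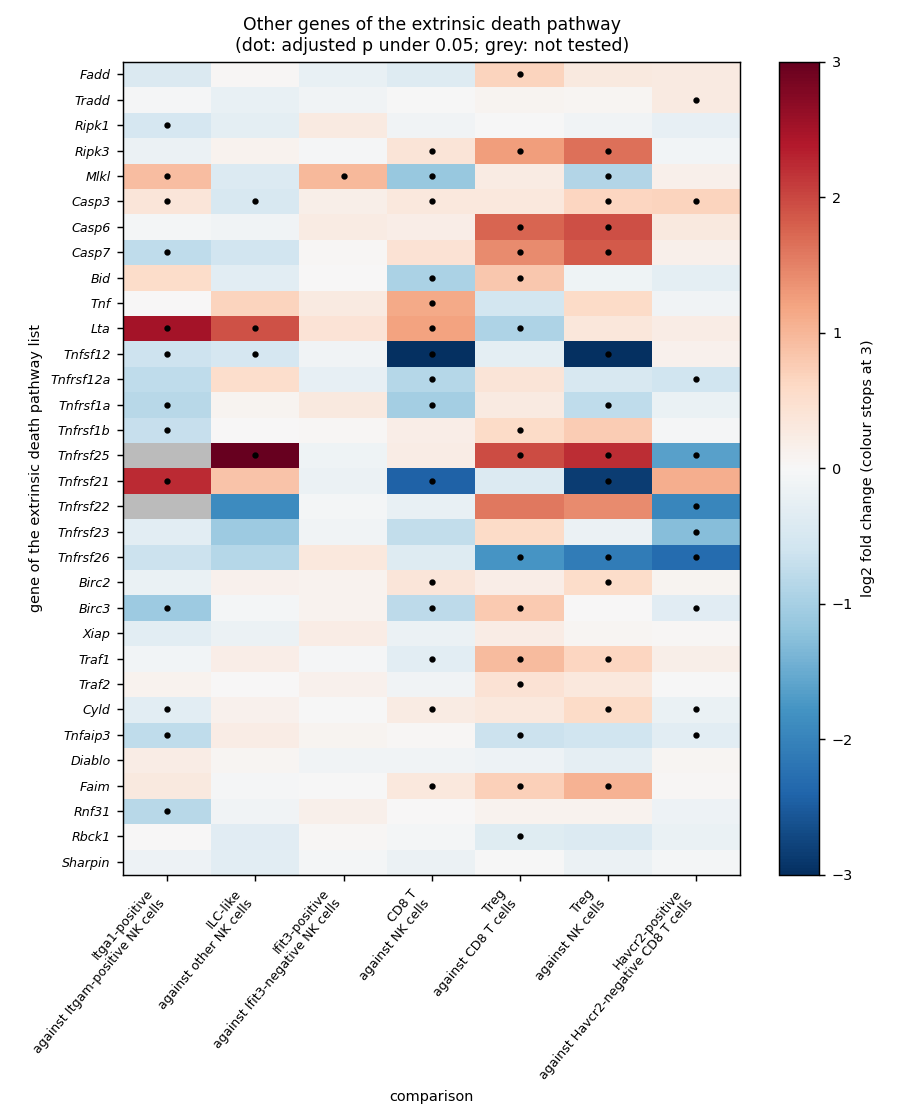
Log2 fold change (color, stopped at 3 on either side) of the genes of the pathway list (y axis) in the 7 comparisons (x axis), with a dot for an adjusted p below 0.05 and grey for genes not tested. *Tnfsf12* and *Tnfrsf21* are blue in CD8 T cells and Treg against NK cells, and *Casp6* and *Ripk3* are red in Treg against both other lineages.

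The genes whose levels were most like those of each member were sought over 18 profiles, 6 groups in each of 3 libraries, among 5087 genes with a mean of at least 20 CPM. The likeness is Pearson's r of log2 CPM, given as a description, as groups of a library share its depth. *Tm6sf1* (r = 0.97), *Iqsec1* (0.96) and *Pde3b* (0.96) were most like *Fasl*. *Elf1*, *Chd3* and *9930111J21Rik2* (0.94 each) were most like *Fas*, and *Ccdc107* (0.90), the gate gene *Itga1* (0.89) and *Rtcb* (0.88) most like *Tnfsf10*. For *Tnfrsf10b* these were *Pgs1*, *Khdrbs1* and *Phyh* (0.88 to 0.90), for *Cflar* *Rap1b*, *Stx11* and *Bclaf3* (0.94 to 0.95) and for *Casp8* *Wtap*, *Tmf1* and *Gimap1* (0.92 to 0.93). Among the members themselves *Fas* and *Casp8* (r = 0.84) and *Cflar* and *Casp8* (0.83) ran most closely together, and *Fasl* and *Tnfrsf10b* (−0.74) ran most strongly apart. *Tnfrsf10b* was itself below 20 CPM in every group. It held 2, 4 and 0 UMIs in *Itgam*-positive NK cells, where *Fasl* was highest, and 5, 4 and 8 UMIs in ILC-like cells. Its r values thus carry counting error.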

How the data were processed

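Lymphocytes sorted from MC38-Ova tumors of Kaede mice were analyzed in 3 libraries, 2 Kaede-green and 1 Kaede-red. Each deposited table holds whole UMI counts of genes in the barcodes that Cell Ranger called as cells, without normalization by the authors. The tables' header names version 6.0.1 and the submitters' processing notes 6.1.2, with mm10. Cells with 1000 to 6000 genes and below 7.5% mitochondrial UMIs were kept. Cells of subclusters with an outlying Scrublet-like doublet score, computed here, were removed (407, 211 and 149), and UMIs of the cells in each gate were summed per library. Cells are not replicates, so the Wilcoxon test over cells of the study's methods was replaced by edgeR 4.0.16 on the sums (quasi-likelihood test, TMM factors, filter on low counts). Each comparison had 6 sums. Both sums of a pair came from the same library, so the library was a block by construction. DESeq2 1.42.0 and other settings were alternatives. The fits were also run on simulated counts in which libraries differed only in depth, so these counts do not test the block.

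Sums were turned into CPM. Color ratios had 0.5 added to each count, and shares have 95% Clopper-Pearson intervals, which, like the Poisson ones, take in only the error of counting. Of the 32285 identifiers, 32235 (99.8%) were found in GENCODE M21. The members, lists, gates and tests were chosen with earlier results of these data known. Named were the 6 members, up to 3 of the largest changes of the pathway list past the threshold in each comparison, the 3 genes most like each member, and the gate and marker genes.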

Additional observations from a re-analysis of the deposited data

Results flagged for a closer look

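Of the values of the 6 genes, 10 stood out because a contrast pointed one way in every library of one group and the other way in the other group. None of these differences was tested, since Kaede-red is 1 library. The share of all genes that met the same conditions was not computed. Over all genes with at least 30 UMIs, the median log2 ratios to Kaede-green 1 and Kaede-green 2 were −0.16 and −0.15 in NK cells. They were 0.01 and −0.02 in CD8 T cells and 0.04 and 0.05 in Treg. The median gene thus also had opposite signs in NK cells and Treg. In the first kind, the ratio of Kaede-red to Kaede-green had opposite signs in different lineages. For *Fasl* the mean log2 ratio was −1.001 in NK cells and 0.47 in Treg, a difference of −1.47. For *Cflar* it was −0.48 in NK cells, −0.34 in CD8 T cells and 0.16 in Treg, which gives differences from Treg of −0.63 and −0.50. For *Casp8* it was −0.50 in NK cells, −0.19 in CD8 T cells and 0.06 in Treg, with differences of −0.56 and −0.26. In CD8 T cells the *Casp8* ratios were −0.28 and −0.11, against 0.17 between the Kaede-green libraries, so the rule for color was not met. The *Casp8* intervals in Treg included 0 (−0.13 to 0.18 and −0.03 to 0.23). So did the Treg intervals of *Cflar* against Kaede-green 1 (−0.04 to 0.27) and of *Fasl* against Kaede-green 2 (−0.03 to 0.50). The *Cflar* ratios with TMM-scaled sizes were −0.34 and −0.16 in NK cells and 0.08 and 0.14 in Treg. With TMM-scaled sizes the *Casp8* ratios were −0.014 and 0.047 in Treg and −0.39 and −0.14 in NK cells. The Treg ratios of *Casp8* then differed in sign. Treg of Kaede-red had a median of 6945 UMIs, below the 9066 and 10061.5 of the Kaede-green libraries, while Kaede-red was the deepest library for NK and CD8 T cells. The part of depth in these signs was not tested.

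In the second kind, a contrast between cell groups had opposite signs in the colors. *Fasl* in CD8 T against NK cells was at a log2 ratio of 0.37 in Kaede-red and −0.61 on average in Kaede-green, a difference of 0.98, and in ILC-like against other NK cells at 0.04 and −0.69, a difference of 0.74. The other three were small or rested on few UMIs. They were *Casp8* in ILC-like against other NK cells (a difference of 0.16), *Tnfsf10* in Treg against NK cells (−0.18) and *Tnfrsf10b* in *Ifit3*-positive against *Ifit3*-negative NK cells (−1.03, with 42 UMIs in the *Ifit3*-positive cells). No group had the 4 or more samples needed to look for a sample far from the others.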

How the results depend on the processing

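Of the alternative values for the 6 genes in the 7 comparisons, 479 kept their direction and side of the threshold, 29 lost a call, 24 gained one and 16 changed sign. Sign changes were at a log2 difference of 0.43 or less. Without the library block the genes called fell to 107 (ILC-like against other NK cells), 13 (*Ifit3*), 1805 (CD8 T against NK cells) and 215 (*Havcr2*), and 11 calls of members were lost, each named beside its result, while 30 member results kept their call or lack of one. Sums of the same library are paired by construction.

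Leaving out 1 library gave 1649 to 3346 genes for *Itga1*-positive against *Itgam*-positive NK cells (lowest without Kaede-green 2), 396 to 1205 for ILC-like cells (lowest without Kaede-green 2, highest without Kaede-red), 533 to 1131 for *Ifit3* (lowest without Kaede-red), 2028 to 5116 for CD8 T against NK cells (lowest without Kaede-green 2), 1792 to 4932 for Treg against NK cells (lowest without Kaede-green 1, highest without Kaede-red) and 2160 to 3118 for *Havcr2* (lowest without Kaede-green 2). DESeq2 called 2127 genes between the integrin classes and 2138 for *Havcr2*. Cells of 4000 to 16000 UMIs gave 1128, 2070 and, for Treg against NK cells, 5167. Thinning before summing, which leaves fewer UMIs, gave 948, 1781 and, for ILC-like cells, 329. With no filter on low counts *Ifit3* gave 1315. The cause was not tested.

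In CD8 T against NK cells *Cflar* changed sign with total UMIs (0.011), stricter gates (0.037), the depth window (0.12) and thinning (0.093), and lay between −0.082 and 0.012 with a library left out, where *Casp8* lay between −0.012 and 0.10. *Tnfsf10* in Treg against NK cells changed sign with total UMIs (0.017), the depth window (0.40) and thinning (0.43). *Fasl* in *Havcr2*-positive cells changed sign with DESeq2 (0.0022), total UMIs (0.043), doublets kept (0.00040) and the depth window (0.19), and lay between −0.038 and 0.046 with a library left out. *Fas* in ILC-like cells was 0.22 in the depth window, and *Tnfrsf10b* in *Ifit3*-positive cells lay between −0.10 and 0.79 with a library left out. Between colors, 3 members rather than 6 met the rule in NK cells with TMM-scaled sizes, for which the share of all genes was not computed. Of the mean ratios, *Tnfrsf10b* (0.029) and *Casp8* (0.073) in *Itga1*-positive NK cells turned positive in the depth window, and *Fasl* in *Havcr2*-positive CD8 T cells with TMM sizes (0.0014).

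Thinned to 4000 UMIs in place of 2000, *Fasl* was detected in 43.8% of NK cells, 39.3% of CD8 T cells and 10.0% of Treg, *Fas* in 5.10%, 7.16% and 12.0%, and *Tnfsf10* in 9.14%, 14.6% and 11.5%, as more UMIs were kept per cell. Leaving out cells with a macrophage UMI, chosen after seeing the data, lost no call of a member and gained 3. *Tnfrsf10b* in NK subsets is limited by its UMIs.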
